A study of Mus musculus with 2 samples.

Results

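Migratory dendritic cells were defined here as retinal immune cells in which both Ccr7 and Fscn1 transcripts were counted. A cell qualified with at least 1 unique molecular identifier (UMI, the tag that marks 1 captured mRNA molecule) of each gene and at least 3 of the pair together. Cells with 2 or more UMIs of the T cell genes Cd3d, Cd3e and Cd3g were left out, as were cells with 3 or more of the B cell genes Cd79a, Cd79b and Ms4a1. So were cells with 15 or more UMIs per 10000 of the microglial genes P2ry12, Tmem119, Gpr34, Olfml3, Sparc and Sall1. The cells were thus chosen by their Ccr7 and Fscn1 counts and by low T cell, B cell and microglial counts, and those genes are described below and not offered as findings. The rule held for 77 of 4385 cells, and all 77 came from the Igfbpl1 library.

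The study treated B6 mice in which microbeads had induced glaucoma with Igfbpl1, a secreted insulin-like growth factor binding protein-like molecule, or with phosphate-buffered saline (PBS). The mice were 8 to 10 months old, and retinas of 10 animals went into each library, so animals cannot be told apart. Retinas were enzymatically digested for 1 h, CD45-positive immune cells were sorted, and 1 droplet library with a 10x Genomics 3' kit was made per treatment. The Igfbpl1 library held 3330 cells with 9463631 UMIs (median 2355.5 per cell) and the PBS library 1055 cells with 3795008 UMIs (median 3433), and the libraries shared 0 cell barcodes.

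Dendritic cells take up antigen in tissues and present it to T cells in lymph nodes. On maturation they make the chemokine receptor Ccr7, which guides them along Ccl19 and Ccl21 into lymphatic vessels, and the actin-bundling protein Fscn1, which builds the long processes they are named for. Mature cells of this kind carry co-stimulatory as well as inhibitory ligands for T cells, switch on noncanonical NF-kB signalling, and shut down further antigen uptake.

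In the Igfbpl1 library 77 of 3330 cells met the rule, a share of 2.31% (exact Clopper-Pearson 95% interval 1.83% to 2.88%). In the PBS library 0 of 1055 cells did, with an upper bound of 0.349% on the same exact interval, or 0.284% when 3 counts stand for the limit that a count of 0 allows. Ccr7 was counted in 174 Igfbpl1 cells and in 29 PBS cells, and Fscn1 in 355 Igfbpl1 cells and in 275 PBS cells. Both genes were counted together in 85 Igfbpl1 cells and in 1 PBS cell, and that PBS cell was left out by the B cell and microglial limits. Each treatment has 1 library, so the difference in shares was not tested. The intervals cover counting error only, since cells of 1 library are not replicates.

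**Figure D1:**
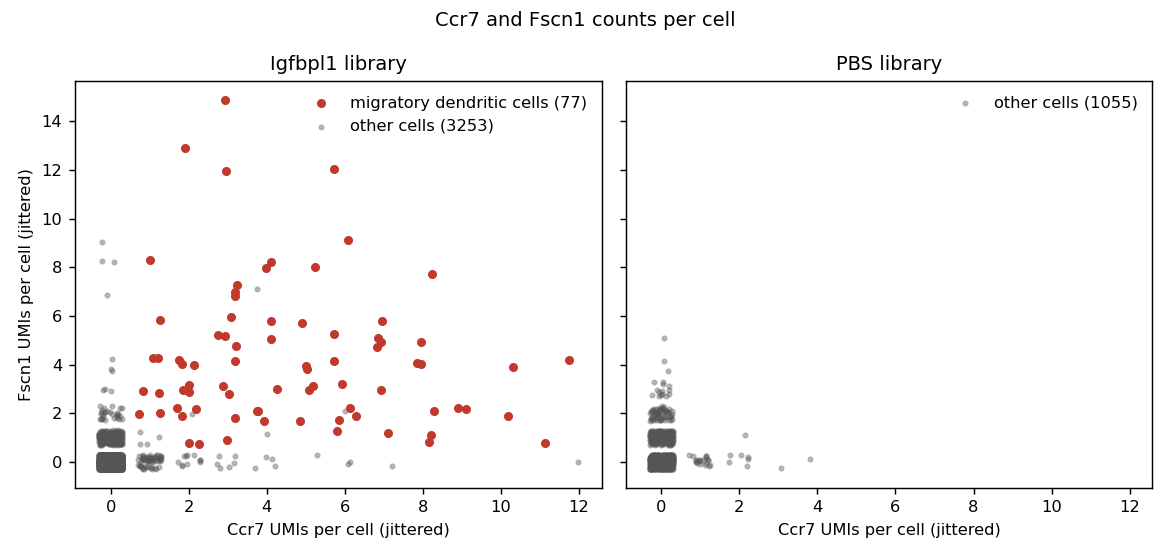
Fscn1 UMIs (y axis) against Ccr7 UMIs (x axis) of every cell, jittered, in the Igfbpl1 library (left) and the PBS library (right), with the migratory dendritic cells in red. The 77 cells spread over 1 to 12 Ccr7 UMIs and 1 to 15 Fscn1 UMIs in the Igfbpl1 library, and no PBS cell is red.

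The counts that chose the cells ran from 1 to 12 UMIs of Ccr7 and from 1 to 15 of Fscn1 per cell, with a median of 4 for each. Ccr7 (chromosome 11, 99144196 to 99155077, minus strand, GRCm38) had 1803 CPM (the gene's share of the UMIs of a class, given per 1000000) in migratory dendritic cells. Fscn1 (chromosome 5, 142960343 to 142973185, plus strand) had 1665 CPM there. At the lower edge, 4 cells had exactly 3 UMIs of the pair, and 2 further cells with 2 UMIs fell outside. Outside the rule lay 11 cells with 3 or more Ccr7 UMIs and no Fscn1, and 7 cells with 3 or more Fscn1 UMIs and no Ccr7.

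The summed level of the other 26 genes of a fixed list of 28 migratory dendritic cell genes was set beside that edge. It had a median of 140 UMIs per 10000 in the 4 cells just inside and 69.6 in the 2 cells just outside. The 11 cells with Ccr7 alone had a median of 109, and the 7 cells with Fscn1 alone a median of 193. The 73 cells with 4 or more UMIs of the pair had a median of 189. These last 2 values are close, so some cells beyond the rule carried as much of the other 26 transcripts as the cells within it.

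Apoe-low and Apoe-high MHC class II cells of the same library served for comparison. They were the remaining cells outside the T, B and microglial limits and not of plasmacytoid type, with at least 40 UMIs per 10000 of the major histocompatibility complex (MHC) class II genes Cd74, H2-Aa, H2-Ab1 and H2-Eb1. They were divided at 30 Apoe UMIs per 10000 into 397 Apoe-low and 287 Apoe-high cells. The PBS library held 1 Apoe-low and 49 Apoe-high cells. Every comparison between classes describes cells of 1 library, and none was tested.

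Migratory dendritic cells gave fewer UMIs per cell than either class. Their total had a median of 2183 (lowest 1013, highest 7716), against 3767 in Apoe-low and 3489 in Apoe-high cells. Ribosomal protein transcripts made up a median 17.6% of UMIs in migratory dendritic cells, 31.7% in Apoe-low cells and 23.9% in Apoe-high cells. Mitochondrial transcripts made up 0.517% in migratory dendritic cells and 0.936% in Apoe-low cells. The part of depth and of the ribosomal share in the ratios below was not tested beyond the alternative settings given at the end.

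The label was set beside genes that the rule did not use. Their list was chosen with earlier results of these data known, and the comparison cells are cells that did not meet the rule. The values therefore describe the cells and are no independent check of the label. The 26 other migratory genes summed to a median of 189 UMIs per 10000 in migratory dendritic cells (range 35 to 418), against 17.6 in Apoe-low and 14.3 in Apoe-high cells. Microglia, which should lack most of them, had 28.6, above both comparison classes. T cell, B cell and microglial genes of the rule were held low by its limits and gave 1, 4 and 12 UMIs in the 77 cells, which says nothing about the label. Scrublet, a doublet caller, marked 62 of 3330 Igfbpl1 cells (1.86%), 3 of them migratory dendritic cells.

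Most Apoe UMIs sat in few of the cells, though low counts were widespread. Apoe was counted in 51 of the 77 migratory dendritic cells and C1q in 44. In Apoe-low cells it was 277 (Apoe) and 239 (C1q) of 397. The 5 migratory dendritic cells with 30 or more Apoe UMIs per 10000 held 888 of the 969 Apoe UMIs of the class (91.6%) and 185 of its 310 C1q UMIs. Those 5 cells had a median of 4727 UMIs, against 2151.5 in the other 72. The list of 10 macrophage genes in the files summed to 6641 CPM in migratory dendritic cells, 1132 CPM in Apoe-low cells and 41375 CPM in Apoe-high cells, with 3 of the 10 at 0 in migratory dendritic cells. Without the 5 cells, none of the 4 macrophage genes then measured was 2-fold higher than in Apoe-low cells, against 3 of 5 with them.

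A gene counted as measured when its mean over the 2 classes was at least 50 CPM with at least 20 UMIs in both together. Folds were called past 2-fold on a log2 scale with 10 CPM added, which understates the change of low genes. Of 2401 genes measured against Apoe-low cells, 472 were at least 2-fold higher in migratory dendritic cells (19.7%) and 292 at least 2-fold lower (12.2%), with a median log2 ratio of 0.11. Against Apoe-high cells 465 of 2581 were higher (18%) and 448 lower (17.4%), with a median of 0.02. These shares are the background for every list that follows. A member of low level could be measured only through the class in which it is high, so the counts and medians over measured members describe each list and lend it no support. A median over all members in the files is given for some lists in which it differs.

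**Figure D2:**
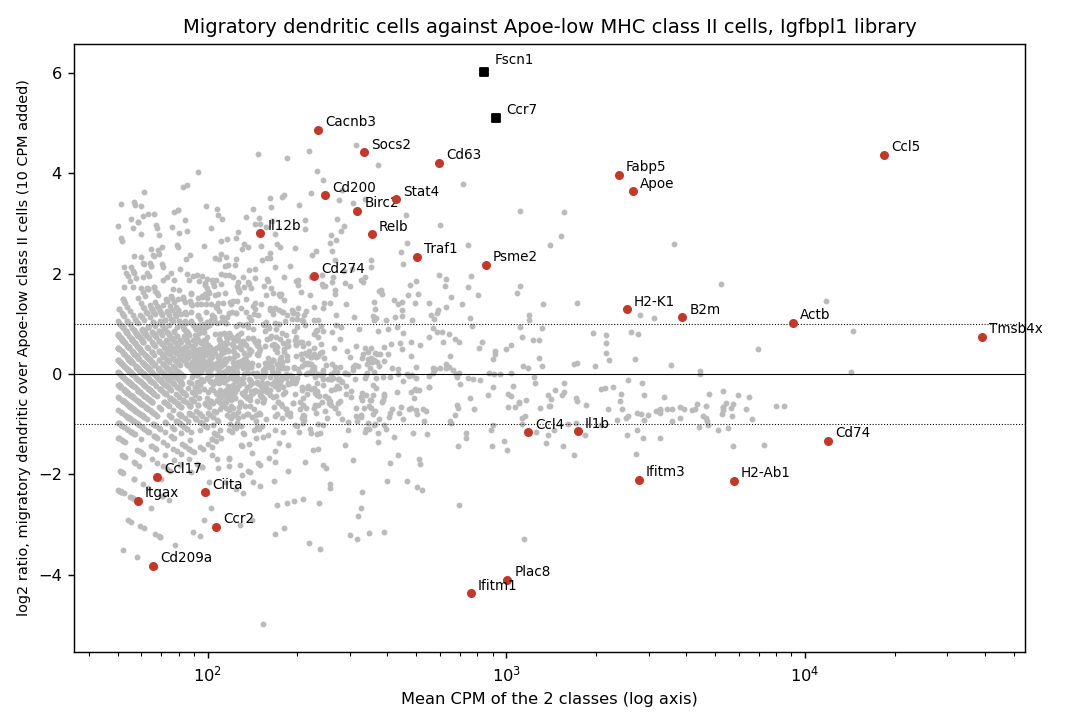
log2 ratio of migratory dendritic over Apoe-low MHC class II cells (y axis, 10 CPM added) against the mean CPM of both classes (x axis, log scale) for 2401 measured genes of the Igfbpl1 library. Black squares are the 2 genes that chose the cells, red points are labelled genes, and dotted lines mark 2-fold. Ccl5 lies far to the right at a log2 ratio of 4.37, and Ifitm1 and Plac8 lie lowest among the labelled points, above the unlabelled Ifi205 at -4.99.

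The genes of the migratory list were high together, with Ccr7 and Fscn1 high by the choice of the cells. Of the 28 listed genes 26 were measured. Against Apoe-low cells 24 were at least 2-fold higher and 0 lower, with a median log2 ratio of 3.24. The count against Apoe-high cells was also 24 of 26, with a median of 4.28. These counts and medians include the 2 genes of the rule, and the summed level without them is given above.

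Cacnb3, a regulatory subunit of voltage-gated calcium channels, had 463 CPM in migratory dendritic cells and 6.27 CPM in Apoe-low cells, and 0 UMIs in Apoe-high cells. It was 73.9-fold higher than in Apoe-low cells (95% interval 38.4 to 159). It was 174-fold above the level of 3 counts in the Apoe-high class, a value that leaves out its own counting error. Nudt17, a nudix hydrolase, had 362 CPM in migratory dendritic cells and 8.78 CPM in Apoe-low cells. Socs2, a suppressor of cytokine signalling, had 647 CPM in migratory dendritic cells, 20.7 CPM in Apoe-low and 7.08 CPM in Apoe-high cells. Nudt17 also had 0 UMIs in Apoe-high cells.

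Other migratory genes were shared more widely. Samsn1, an adaptor protein, had 2017 CPM in migratory dendritic cells, 203 CPM in Apoe-low cells, 210 CPM in Apoe-high cells and 494 CPM in microglia. Epsti1, named for its induction by stroma, had 2826 CPM in migratory dendritic cells, 290 CPM in Apoe-low and 269 CPM in Apoe-high cells. Basp1, a membrane protein that binds actin regulators, had 968 CPM in migratory dendritic cells, against 280 CPM in Apoe-low cells and 767 CPM in microglia. Birc3 and Cd83 were the 2 measured members under 2-fold. Cd83, a maturation marker that stabilises MHC class II at the surface, had 586 CPM in migratory dendritic cells and 372 CPM in Apoe-low cells (ratio 1.57, 1.28 to 1.92), and microglia had 760 CPM.

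**Figure D3:**
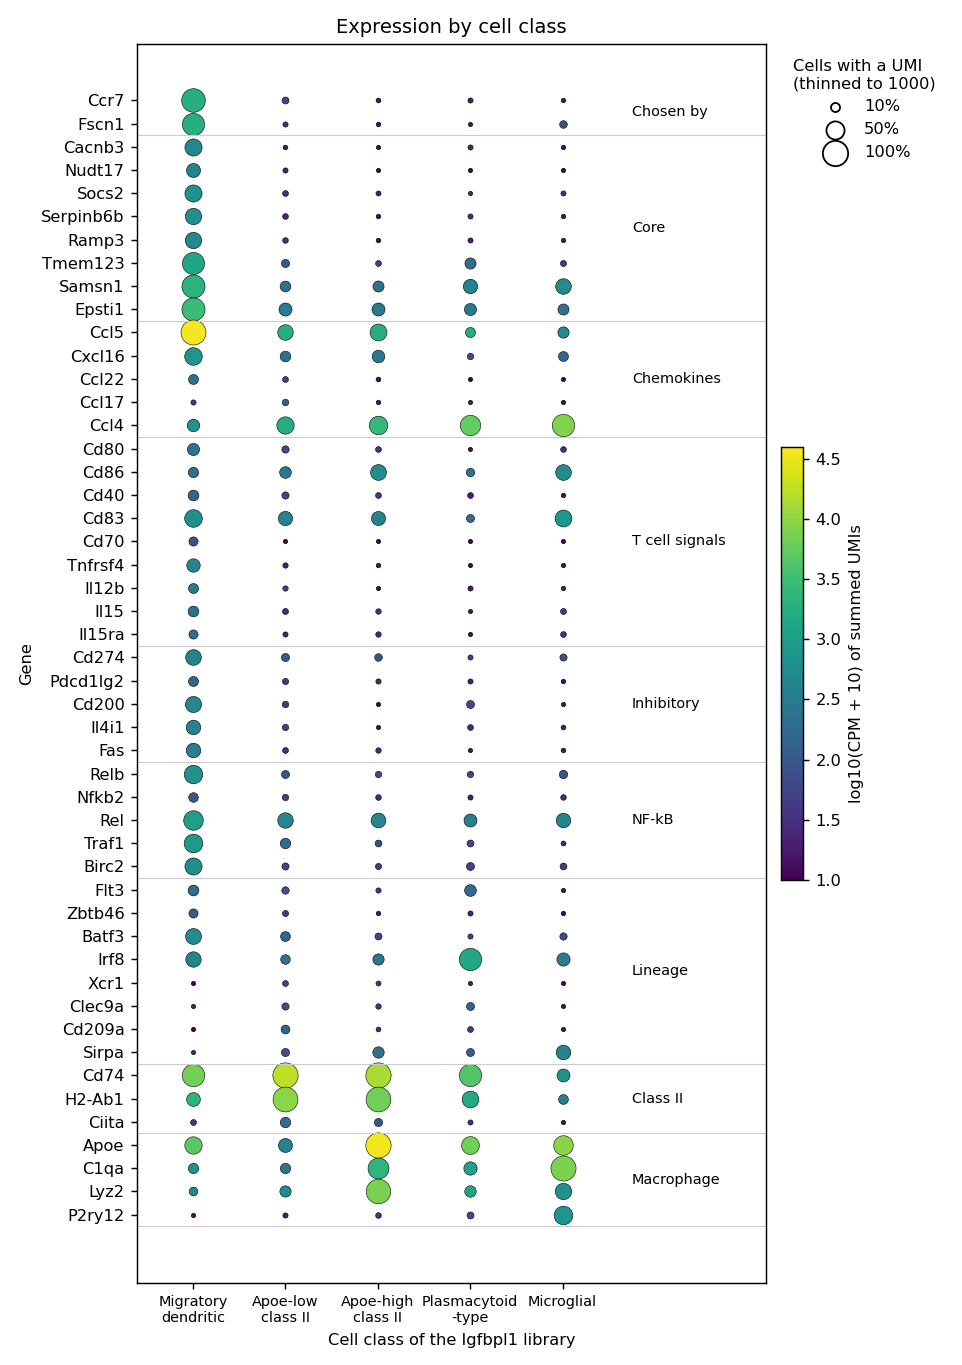
Summed expression (colour, log10 of CPM with 10 added) and share of cells with a UMI after each cell was thinned to 1000 UMIs (circle area grows with share) for named genes (rows) in 5 classes of the Igfbpl1 library (columns, migratory dendritic cells first). Core genes from Cacnb3 to Ramp3 fill the first column and are near empty elsewhere, while Ccl4, Cd86 and Lyz2 are stronger in other classes.

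The chemokine Ccl5 had the highest level of the listed ligands in these cells. Ccl5 (chromosome 11, 83525778 to 83530518, minus strand), which attracts T cells and other leukocytes, gave 6895 UMIs in the 77 cells. Every migratory dendritic cell had some, with a lowest value of 2.82, a median of 310 and a highest value of 1233 UMIs per 10000. Apoe-low cells had a median of 1.97 and a highest value of 1103, so single Apoe-low cells reached the same level. Of the 397 Apoe-low cells, 40 had a UMI of Ccr7 or Fscn1 without meeting the rule. As class sums this was 35114 CPM in migratory dendritic cells, 1695 CPM in Apoe-low and 1873 CPM in Apoe-high cells, a ratio of 20.7 over Apoe-low cells (19.8 to 21.7). The log2 ratio of 4.37 was 3.51 when cells were chosen after thinning to 1000 UMIs, and 5.08 when those 40 cells were left out of the Apoe-low class. After thinning to 1000 UMIs, 97.4% of migratory dendritic cells kept a Ccl5 UMI, against 35.8% of Apoe-low cells and 17.3% of microglia. Before thinning it was 77 of 77 migratory dendritic cells and 223 of 397 Apoe-low cells, at median depths of 2183 and 3767 UMIs.

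Ccl5 was not typical of the chemokines. Of 18 listed ligands 13 were measured against Apoe-low cells, with 4 higher and 6 lower and a median log2 ratio of -0.73. Ccl22, a ligand of Ccr4 that draws regulatory T cells, gave 42 UMIs in 19 migratory dendritic cells, 11 of them in 1 cell. It had 214 CPM in migratory dendritic cells, 35.7 CPM in Apoe-low and 2.66 CPM in Apoe-high cells (5.99-fold over Apoe-low, 3.92 to 9.08). That interval covers counting error only: the log2 ratio of 2.29 was 0.80, under 2-fold, after thinning and 3.99 without the 40 Apoe-low cells that had Ccr7 or Fscn1. Ccl17, the other ligand of that receptor, ran the other way, with 4 UMIs in 2 migratory dendritic cells (20.4 CPM) and 115 CPM in Apoe-low cells (ratio 0.177, 0.0476 to 0.460). Those 184 Apoe-low UMIs of Ccl17 came from 24 of 397 cells.

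Cxcl16, a membrane-bound ligand of Cxcr6, had 744 CPM in migratory dendritic cells, 211 CPM in Apoe-low and 287 CPM in Apoe-high cells. Ccl4, a chemokine that microglia make, had 728 CPM in migratory dendritic cells, 1636 CPM in Apoe-low cells and 8302 CPM in microglia. Ccl2, the main monocyte attractant, gave 69 UMIs in 6 migratory dendritic cells. Its log2 ratio over Apoe-low cells was 1.32, and -2.75 without the 5 cells of high Apoe. Ccl19, a ligand of Ccr7 itself, gave 4 UMIs in 3 migratory dendritic cells. Among 18 chemoattractant receptors, 7 were measured against Apoe-low cells. Only Ccr7, which is high because it chose the cells, was higher, and only Ccr2 was lower. Ccr2, which marks monocytes and their recent progeny, had 3 UMIs in migratory dendritic cells (15.3 CPM), against 199 CPM in Apoe-low and 367 CPM in Apoe-high cells.

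**Figure D4:**
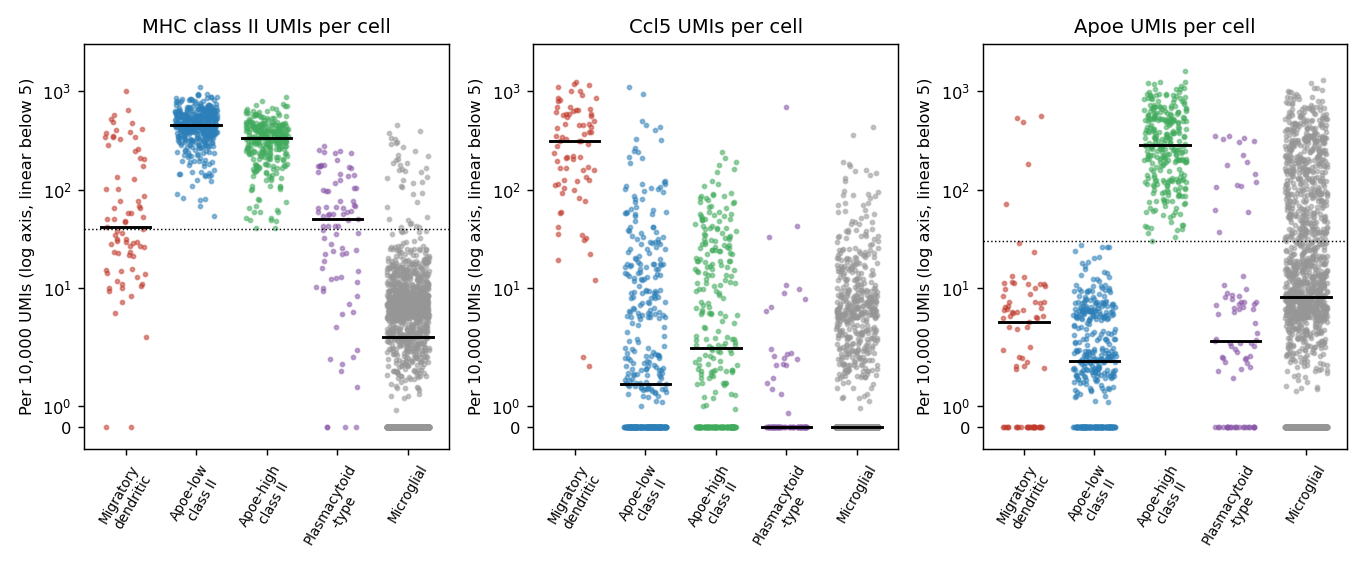
Single-cell levels (UMIs per 10000, log axis that is linear below 5) of the 4 MHC class II genes, of Ccl5 and of Apoe in 5 classes of the Igfbpl1 library. Each point is a cell, black bars are medians and dotted lines are the limits that defined the comparison classes. Migratory dendritic cells spread from 0 to 995 for MHC class II, all lie above 0 for Ccl5, and 5 of them lie above the Apoe limit.

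The co-stimulatory ligands did not share a direction. Of 16 listed genes 9 were measured against Apoe-low cells, with 4 higher and 1 lower (median log2 ratio 0.83, and 1.37 over the 15 in the files). Cd80, which binds Cd28 and Ctla4 on T cells, had 234 CPM in migratory dendritic cells, 54.5 CPM in Apoe-low and 24.8 CPM in Apoe-high cells (4.29-fold over Apoe-low, 2.94 to 6.21). Its relative Cd86 had 199 CPM in migratory dendritic cells, 272 CPM in Apoe-low and 565 CPM in Apoe-high cells, and against Apoe-high cells it was past 2-fold lower. Cd40, through which T cells license dendritic cells, had 132 CPM in migratory dendritic cells and 45.1 CPM in Apoe-low cells.

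A receptor and a ligand of the tumour necrosis factor families were near or at 0 in both comparison classes. Tnfrsf4, the receptor OX40 better known on activated T cells, had 428 CPM in migratory dendritic cells, 10.0 CPM in Apoe-low and 4.43 CPM in Apoe-high cells. Cd70, the ligand of Cd27, gave 14 UMIs in 11 migratory dendritic cells (71.3 CPM) and 0 UMIs in either comparison class. That was 37.9-fold above the level of 3 counts in the Apoe-low class, a value that leaves out the counting error of the 14 UMIs. Cd48, an adhesion ligand of Cd244, was the measured member that was lower, with 50.9 CPM in migratory dendritic cells and 205 CPM in Apoe-low cells.

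Of 22 listed inhibitory and regulatory genes 13 were measured against Apoe-low cells, with 9 higher and 3 lower (median log2 ratio 2.0). Over all 20 members in the files the median was 0.36, and 0.10 against Apoe-high cells. Cd274, the ligand PD-L1 (chromosome 19, 29367455 to 29388095, plus strand), had 367 CPM in migratory dendritic cells, 87.8 CPM in Apoe-low and 74.4 CPM in Apoe-high cells (4.18-fold over Apoe-low, 3.1 to 5.59). Pdcd1lg2, the second ligand of the same receptor, had 143 CPM in migratory dendritic cells and 28.2 CPM in Apoe-low cells. Cd200, which restrains myeloid cells through its receptor, had 463 CPM in migratory dendritic cells and 30.1 CPM in Apoe-low cells, with 0 UMIs in Apoe-high cells.

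Il4i1, a secreted amino acid oxidase that dampens T cells, had 387 CPM in migratory dendritic cells and 37.0 CPM in Apoe-low cells. Fas, a death receptor, had 336 CPM in migratory dendritic cells, 20.1 CPM in Apoe-low and 16.8 CPM in Apoe-high cells. The 3 lower genes were Socs3, Tgfb1 and Havcr2. Havcr2, the receptor TIM-3, had 20.4 CPM in migratory dendritic cells and 97.8 CPM in Apoe-low cells. Aldh1a2, which makes retinoic acid, gave 1 UMI in the 77 cells.

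Cytokine transcripts were mixed, with 6 of 14 measured genes higher and 3 lower than in Apoe-low cells and a median of 0.10 over all 22 in the files. Il15 and its receptor chain Il15ra, which together present the cytokine to T and NK cells, stood at 209 CPM (Il15) and 158 CPM (Il15ra) in migratory dendritic cells, against 15.7 CPM (Il15) and 10.0 CPM (Il15ra) in Apoe-low cells. Il12b (chromosome 11, 44400063 to 44414033, plus strand), the p40 chain of interleukins 12 and 23, had 270 CPM in migratory dendritic cells, 30.1 CPM in Apoe-low and 0.886 CPM in Apoe-high cells. Its 53 UMIs came from 16 of the 77 cells, with 22 in 1 cell and 10 in the next, and its log2 ratio over Apoe-low cells of 2.80 was 0.72 among the 39 cells that reached the MHC class II limit described below. Il7r, a receptor chain for interleukin 7, had 265 CPM in migratory dendritic cells and 24.5 CPM in Apoe-low cells. Il1b, an inflammatory cytokine, had 1080 CPM in migratory dendritic cells, 2387 CPM in Apoe-low and 2295 CPM in Apoe-high cells.

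The NF-kB genes leaned one way. NF-kB dimers bind DNA as transcription factors, and the noncanonical arm runs through Map3k14 to Nfkb2 and Relb, with Traf3 and Birc2 holding the kinase in check. Of 24 listed genes 19 were measured against Apoe-low cells, with 10 higher and 0 lower (median log2 ratio 1.12), and against Apoe-high cells 13 were higher and 1 lower. Among the 39 cells that reached the MHC class II limit the lean was weaker. There 7 of 18 measured genes were higher and 1 lower than in Apoe-low cells, with a median of 0.89. Relb had 626 CPM in migratory dendritic cells, 82.1 CPM in Apoe-low and 55.8 CPM in Apoe-high cells (7.63-fold over Apoe-low, 5.92 to 9.83). Map3k14 had 265 CPM in migratory dendritic cells and 84.0 CPM in Apoe-low cells. Birc2 had 581 CPM in migratory dendritic cells and 52.0 CPM in Apoe-low cells. Traf1, an adaptor of tumour necrosis factor receptors, had 845 CPM in migratory dendritic cells and 160 CPM in Apoe-low cells. Nfkb1, the canonical subunit, was under 2-fold, with 153 CPM in migratory dendritic cells and 191 CPM in Apoe-low cells, but its log2 ratio was -1.09 among those 39 cells.

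The promoters of these genes were searched for the NF-kB motif GGG, 2 bases of any kind and TTTCC on both strands, in the RefSeq windows of 250 bases before to 50 after each start (GRCm38.p6). The motif was found for 512 of 27025 genes with a promoter (1.89%). Of 24 NF-kB list genes 19 were matched to a promoter, and the motif was found for 6 of them (31.6%). Of 28 migratory list genes 22 were matched, and it was found for 0. With a match in only 1.89% of all genes, 0 of 22 does not set the migratory list apart from genes at large. Shown are the 120 bases before the start of the 5 NF-kB list genes whose match lies there, because 3 of them (Nfkb2, Rel and Traf3) were past 2-fold higher than in Apoe-low cells and 2 (Nfkbia and Tnfaip3) were not. Capitals mark the match, and where it lies on the opposite strand the letters read GGAAA, 2 bases of any kind and CCC. A match is a description of these letters and not a shown binding site.
Nfkb2 promoter, chr19:46304617-46304736, plus strand: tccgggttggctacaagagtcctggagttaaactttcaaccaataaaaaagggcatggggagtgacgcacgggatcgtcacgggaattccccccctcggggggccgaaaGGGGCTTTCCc
Rel promoter, chr11:23770970-23771089, minus strand: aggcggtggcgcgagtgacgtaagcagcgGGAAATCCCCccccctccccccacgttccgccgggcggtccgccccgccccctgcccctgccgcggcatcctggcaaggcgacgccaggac
Traf3 promoter, chr12:111166250-111166369, plus strand: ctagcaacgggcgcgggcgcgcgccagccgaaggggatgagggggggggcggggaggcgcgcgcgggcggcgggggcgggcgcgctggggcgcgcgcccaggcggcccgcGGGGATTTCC
Nfkbia promoter, chr12:55492648-55492767, minus strand: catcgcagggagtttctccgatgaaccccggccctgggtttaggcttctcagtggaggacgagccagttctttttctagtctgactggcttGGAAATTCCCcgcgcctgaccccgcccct
Tnfaip3 promoter, chr10:19015411-19015530, minus strand: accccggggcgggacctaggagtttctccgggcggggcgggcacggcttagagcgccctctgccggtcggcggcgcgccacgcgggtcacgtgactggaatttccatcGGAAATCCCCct

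Rel, the canonical subunit with the motif 91 bases before its start, had 1039 CPM in migratory dendritic cells and 473 CPM in Apoe-low cells (ratio 2.20, 1.87 to 2.57). Nfkb2 had 91.7 CPM in migratory dendritic cells and 33.9 CPM in Apoe-low cells (ratio 2.71, 1.5 to 4.69). Traf3 had 229 CPM in migratory dendritic cells and 32.6 CPM in Apoe-low cells (ratio 7.03, 4.61 to 10.7). Among the 39 cells that reached the MHC class II limit, the log2 ratios over Apoe-low cells were 0.85 for Rel and 0.79 for Nfkb2, both under 2-fold. For Traf3 it was 2.57. Of the pair of feedback inhibitors, Nfkbia had 754 CPM in migratory dendritic cells and 418 CPM in Apoe-low cells, and Tnfaip3 had 102 CPM in migratory dendritic cells and 93.4 CPM in Apoe-low cells.

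**Figure D5:**
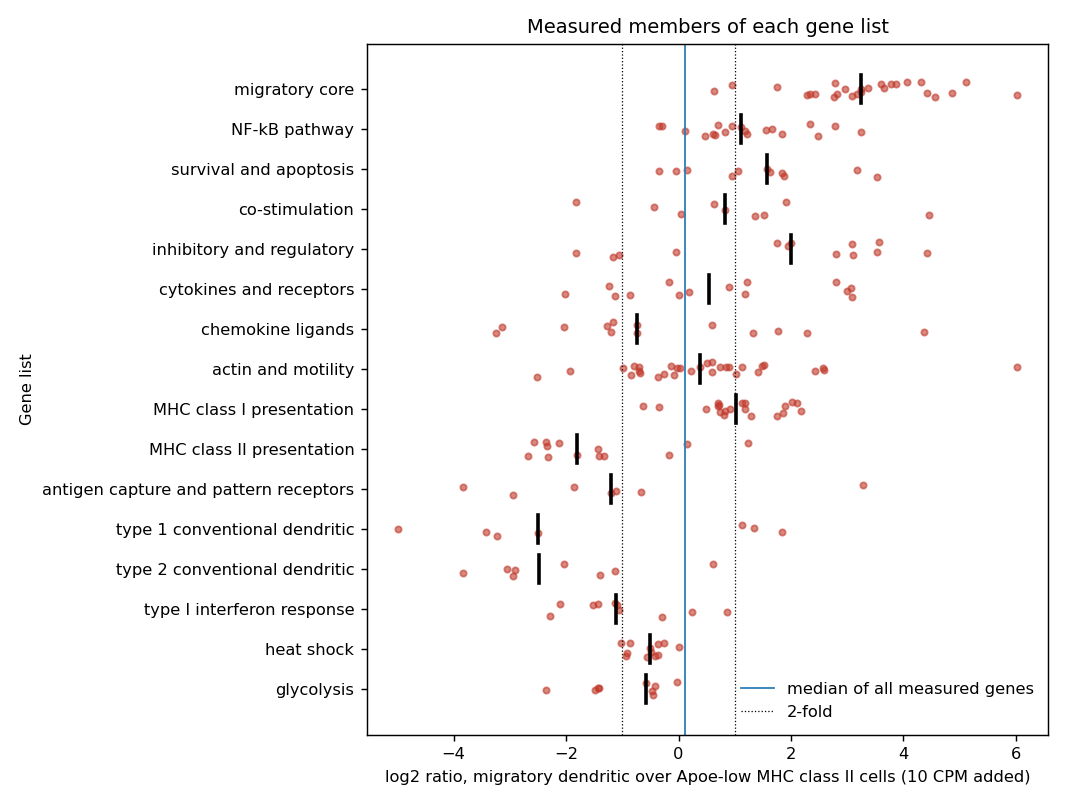
log2 ratio of migratory dendritic over Apoe-low MHC class II cells (x axis, 10 CPM added) for each measured gene (points) of 16 gene lists (rows), with list medians (black bars), the median of all 2401 measured genes (blue line, 0.11) and 2-fold (dotted lines). The migratory list, with the 2 genes of the rule included, lies farthest right at a median of 3.24. MHC class II presentation and the markers of conventional dendritic cell types lie left.

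Antigen presentation divided by class. Of 21 listed MHC class I presentation genes 20 were measured, with 10 higher than in Apoe-low cells and 0 lower (median log2 ratio 1.03), and 11 higher and 0 lower against Apoe-high cells. B2m, the light chain of every class I molecule, had 5337 CPM in migratory dendritic cells, 2434 CPM in Apoe-low and 2934 CPM in Apoe-high cells. H2-K1, a heavy chain, had 3596 CPM in migratory dendritic cells and 1467 CPM in Apoe-low cells (ratio 2.45, 2.25 to 2.67). Reads of the H2 heavy chains can be shared between near-identical copies, so single H2 genes are uncertain. Psme2, a subunit of the proteasome activator and not an H2 gene, had 1406 CPM in migratory dendritic cells, 302 CPM in Apoe-low and 201 CPM in Apoe-high cells. Whether its reads are shared with a copy was not tested.

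MHC class II genes were lower, with 10 of 13 measured genes past 2-fold below Apoe-low cells and 1 above (median log2 ratio -1.80). The comparison cells were chosen for at least 40 UMIs per 10000 of 4 of these genes and the migratory dendritic cells were not, so that part of the difference is built in. H2-Ab1 had 2144 CPM in migratory dendritic cells, 9398 CPM in Apoe-low and 6540 CPM in Apoe-high cells. Among the 39 migratory dendritic cells that themselves reached 40 per 10000, its log2 ratio was -1.28 over Apoe-low and -0.76 over Apoe-high cells. The other 3 genes of the limit were under 2-fold in those 39 cells, with Cd74 at -0.59, H2-Eb1 at -0.59 and H2-Aa at -0.61 over Apoe-low cells, and with Cd74 at -0.24, H2-Eb1 at 0.02 and H2-Aa at -0.11 over Apoe-high cells. For the list, 7 of 14 measured genes were then past 2-fold lower than in Apoe-low cells and 4 of 11 than in Apoe-high cells. Ciita, the master regulator of class II transcription and no part of the class limit, gave 5 UMIs in migratory dendritic cells (25.5 CPM), against 171 CPM in Apoe-low and 78.8 CPM in Apoe-high cells. H2-DMa, which loads peptides onto class II, had 168 CPM in migratory dendritic cells and 877 CPM in Apoe-low cells.

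Receptors for antigen uptake were mostly low. Of 29 listed genes 7 were measured against Apoe-low cells, with 5 lower and 1 higher, and 15 against Apoe-high cells, with 14 lower and 1 higher. The higher gene was in both comparisons Ly75, the endocytic receptor DEC-205, with 204 CPM in migratory dendritic cells, 11.9 CPM in Apoe-low and 7.08 CPM in Apoe-high cells. Clec12a, an inhibitory lectin, had 35.7 CPM in migratory dendritic cells and 155 CPM in Apoe-low cells, and Fcer1g, the signalling chain of Fc receptors, had 912 CPM in migratory dendritic cells and 1977 CPM in Apoe-low cells.

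Of 8 listed markers of dendritic cells of any kind 5 were measured against Apoe-low cells, with 2 higher (Flt3 and Zbtb46) and 2 lower (Itgax and Cd24a). Flt3, a growth factor receptor of dendritic cells and their precursors, had 188 CPM in migratory dendritic cells, 69.6 CPM in Apoe-low and 23 CPM in Apoe-high cells. Zbtb46, a transcription factor of conventional dendritic cells, had 91.7 CPM in migratory dendritic cells and 30.1 CPM in Apoe-low cells (ratio 3.05, 1.67 to 5.33), but its log2 ratio of 1.34 was 0.41 after thinning to 1000 UMIs. Itgax, which encodes Cd11c and is widely used to sort dendritic cells, gave 2 UMIs in the 77 cells (10.2 CPM), against 107 CPM in Apoe-low cells (ratio 0.0956, 0.0115 to 0.351). Cd24a, a surface glycoprotein, gave 4 UMIs (20.4 CPM) in migratory dendritic cells and 94.0 CPM in Apoe-low cells. Bcl11a, a transcription factor that fell short of the measurement limits, gave 2 UMIs in migratory dendritic cells and 71.5 CPM in Apoe-low cells.

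Markers of conventional subtypes gave no clear assignment. For type 1 cells 7 of 15 listed markers were measured against Apoe-low cells, with 3 higher (Batf3, Irf8 and Id2) and 4 lower (Wdfy4, Naaa, Ppt1 and Ifi205), a median log2 ratio of -2.51, and 5 of 14 in the files at 0 in migratory dendritic cells. Against Apoe-high cells 5 were measured, with 2 higher (Batf3 and Id2), 2 lower (Wdfy4 and Ppt1) and a median of 0.91. Over all 14 in the files the medians were -1.95 against Apoe-low and -1.42 against Apoe-high cells. The list summed to 1910 CPM in migratory dendritic cells, 1733 CPM in Apoe-low and 1118 CPM in Apoe-high cells. Batf3, a transcription factor of type 1 cells, had 525 CPM in migratory dendritic cells, 139 CPM in Apoe-low and 51.4 CPM in Apoe-high cells. Irf8, its partner in those cells, had 428 CPM in migratory dendritic cells, 190 CPM in Apoe-low and 223 CPM in Apoe-high cells. The type 1 surface gene Xcr1 had 0 UMIs in the 77 cells, which allows up to 15.3 CPM, and had 39.5 CPM in Apoe-low cells. Clec9a, the type 1 receptor for dead cells, gave 2 UMIs in migratory dendritic cells. Wdfy4, which type 1 cells need for cross-presentation, gave 2 UMIs in migratory dendritic cells (10.2 CPM), against 179 CPM in Apoe-low cells. Ifi205 had 0 UMIs in migratory dendritic cells and 308 CPM in Apoe-low cells. For type 2 cells 7 of 8 measured markers were lower and 0 higher. Cd209a, a type 2 lectin, had 0 UMIs in migratory dendritic cells and 132 CPM in Apoe-low cells, and Sirpa gave 3 UMIs (15.3 CPM), against 65.8 CPM in Apoe-low and 201 CPM in Apoe-high cells. The subtype of the cells was therefore not called.

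Most genes of cell shape and movement stayed within 2-fold. Of 36 listed genes 31 were measured against Apoe-low cells, with 9 higher (Fscn1 of the rule among them), 2 lower and 20 between. Their median log2 ratio was 0.39. Of all measured genes, 19.7% were higher and 12.2% lower, so the list is not set apart by its count. Actb, the main cytoplasmic actin, had 12207 CPM in migratory dendritic cells, 6004 CPM in Apoe-low and 3783 CPM in Apoe-high cells. Myo1g, a membrane-bound myosin of leukocytes, had 300 CPM in migratory dendritic cells and 41.4 CPM in Apoe-low cells, and Lsp1, an actin-binding protein, had 1930 CPM in migratory dendritic cells and 722 CPM in Apoe-low cells. Rac2, a leukocyte GTPase of actin remodelling, had 50.9 CPM in migratory dendritic cells and 340 CPM in Apoe-low cells. Itgb2, the shared chain of the leukocyte integrins, gave 3 UMIs in migratory dendritic cells and 86.5 CPM in Apoe-low cells.

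Survival genes were higher in 7 of 11 measured cases and lower in 0 (median log2 ratio 1.58, and 1.01 over all 16 in the files). Bcl2l14, of the Bcl2 family, had 204 CPM in migratory dendritic cells and 13.8 CPM in Apoe-low cells. Bcl2a1b, an antiapoptotic member with near-identical copies that share reads, had 1640 CPM in migratory dendritic cells and 527 CPM in Apoe-low cells. Stat4, a transcription factor downstream of interleukin 12, had 794 CPM in migratory dendritic cells, 62.1 CPM in Apoe-low and 26.6 CPM in Apoe-high cells.

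Type I interferon genes were lower in 7 of 10 measured cases and higher in 0 against Apoe-low cells (median log2 ratio -1.11), and in 7 of 11 against Apoe-high cells. Ifitm3, a membrane protein that blocks virus entry, had 1039 CPM in migratory dendritic cells, 4517 CPM in Apoe-low and 3548 CPM in Apoe-high cells. Isg15, a ubiquitin-like interferon product, was not part of this, with 402 CPM in migratory dendritic cells and 339 CPM in Apoe-low cells. Plac8, a gene of monocytes and plasmacytoid cells, was among the lowest ratios of all, with 102 CPM in migratory dendritic cells and 1911 CPM in Apoe-low cells (ratio 0.0533, 0.0325 to 0.0825). Monocyte markers as a list were lower in 4 of 5 measured cases.

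The 77 cells varied widely in MHC class II. The 4 genes summed to 0 at the lowest, 41.3 at the median and 995 UMIs per 10000 at the highest, with quartiles of 21.0 and 204. Of the cells, 39 lay at or above the limit of 40 and 38 below it, with median depths of 2299 and 1995 UMIs. This division was made after seeing the data. Of 760 genes with 30 or more UMIs, 35 were past 2-fold higher in the class II-high cells and 31 past 2-fold lower, around a median log2 ratio of -0.0014.

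Across that division Ccr7, Relb and Ccl22 lay close together. Ccr7 stood at 1696 CPM in class II-high and 1930 CPM in class II-low cells, Relb at 628 CPM in class II-high and 625 CPM in class II-low cells, and Ccl22 at 216 CPM in class II-high and 212 CPM in class II-low cells. Il12b differed, with 6 UMIs in 6 class II-high cells and 47 UMIs in 10 class II-low cells (ratio 0.107, 0.0375 to 0.251), though 22 of the 47 lay in 1 cell. Il15 had 112 CPM in class II-high and 323 CPM in class II-low cells (ratio 0.348, 0.162 to 0.703), and Ccl5 had 25257 CPM in class II-high and 46847 CPM in class II-low cells. In the other direction, Il4i1 had 544 CPM in class II-high and 201 CPM in class II-low cells (2.71-fold, 1.57 to 4.88). Gpr183, a receptor for oxysterols that positions dendritic cells in lymphoid tissue, had 281 CPM in class II-high and 55.8 CPM in class II-low cells. Ciita gave 5 UMIs in class II-high and 0 in class II-low cells.

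Transcripts of the sex chromosomes give a view of the pooling. Among the 77 cells 31 had Xist UMIs and none of 4 Y-linked genes, and 0 had the reverse, which allows up to 9.68% of 31 cells. In Apoe-low cells it was 220 against 8, and in microglia 549 against 431. Of the microglia with either pattern, 44.0% thus had Y-linked and no Xist UMIs. The class held 1572 microglia in all. The labels give no sex for the animals, and how many of the 10 mice gave the migratory dendritic cells cannot be told.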

How the data were processed

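The deposited tables hold raw UMI counts per gene and cell for 1 library per treatment, made with Cell Ranger 3.1 on mm10 per the submitters' processing notes; filters before deposit are not given in the sources used here. Each library's cells had at least 1001 (Igfbpl1) or 1003 (PBS) UMIs. A gene absent from a table counted as 0. Cells were classed by the UMI limits given in the report, which together with the gene lists were chosen with earlier results of these data known. UMIs were summed over the cells of a class and divided by the class total (CPM), with exact Poisson 95% intervals, and ratios have exact conditional binomial 95% intervals. No test was run, since each group is 1 library. A rule picked genes to name: the 15 of largest and 10 of smallest ratio against Apoe-low cells with 50 or more UMIs. It also picked the 5 of largest and 5 of smallest ratio against Apoe-high cells, and a fixed set. From each of 33 lists it picked up to 4 by level and up to 4 by each direction of ratio. Not every picked gene is described above. Left out were, among others, Atxn1 and Tspan3 (log2 ratios over Apoe-low cells of 4.38 and 4.17) and Gsn and Ckb (-3.84 and -3.37). Other genes named were chosen after their values were seen. Counts were thinned to 1000 UMIs per cell for shares. Doublets were called with Scrublet (scanpy 1.11.5) and kept in the main values. Scripts used Python 3.11.15, numpy 2.4.6, pandas 2.3.3 and scipy 1.17.1 and were tested on simulated data. Gene positions come from GENCODE on GRCm38 and promoters from RefSeq (GRCm38.p6). There were 18 alternative settings.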

Additional observations from a re-analysis of the deposited data

How the results depend on the processing

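The 18 alternatives changed the limits of the cell rule and classes, depth, doublets, scaling, the CPM added, the minimum level and the cells kept. Over 427 single ratios and list medians, 6575 recomputed values stayed within their error (list medians within 1.5-fold) and 1105 moved beyond it. A further 6, all past 2-fold as reported, changed sign; values under 2-fold that crossed 0 are among the others, such as the lysosome median against Apoe-low cells (-0.62 without the 5 cells of high Apoe, against 0.08). The share in the Igfbpl1 library was 1.32% with cells thinned to 1000 UMIs, against 2.31%. With a minimum of 10 CPM, 720 genes were higher and 768 lower against Apoe-low cells, and 1213 were lower against Apoe-high cells. With 50 CPM added, 178 were lower against Apoe-low cells. Thinning moved the higher share of genes called against Apoe-high cells to 40.3%, against 50.9%. The 6 were Ccl2 against Apoe-low cells (log2 -1.91 thinned, -2.75 without the 5 cells of high Apoe), Xcl1 (0.46 without called doublets), Ebi3 (-0.76 in cells with Xist and no Y-linked UMIs) and, under thinning, Pcna against Apoe-high cells (0.0079) and the median of co-stimulation against Apoe-high MHC class II cells (-0.0695). The cause was not tested. Leaving out members of high Apoe, or members below 40 MHC class II UMIs per 10000, was chosen after seeing the data. The log2 ratio of Il12b over Apoe-low cells was 0.72 without the cells below 40, against 2.80. No paired analysis was possible because each treatment has 1 library and no result comes from a test. With 77 cells and 196359 UMIs, genes under about 15.3 CPM in migratory dendritic cells cannot be told from 0.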

Other observations

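Fabp5, a carrier of fatty acids, had 4487 CPM in migratory dendritic cells, 278 CPM in Apoe-low and 586 CPM in Apoe-high cells (16.2-fold over Apoe-low, 14.4 to 18.2), and was counted in 68 of the 77 cells. Cd63, a tetraspanin of late endosomes, had 1136 CPM in migratory dendritic cells, 52.0 CPM in Apoe-low cells and 746 CPM in microglia. Cst3, a secreted cathepsin inhibitor, had 18660 CPM in migratory dendritic cells, 10345 CPM in Apoe-low and 4978 CPM in Apoe-high cells. Of 20 measured lysosome genes 5 were higher and 2 lower than in Apoe-low cells, and 3 higher and 7 lower without the 5 cells of high Apoe.

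Igf1r, which encodes the growth factor receptor for Igf1, had 0 UMIs in migratory dendritic cells, which allows up to 15.3 CPM. It had 8.15 CPM in Apoe-low, 22.1 CPM in Apoe-high cells and 74.4 CPM in microglia. Of 20 listed genes of that pathway 4 were measured, with Pik3r1 at 255 CPM in migratory dendritic cells and 75.9 CPM in Apoe-low cells.

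Glycolysis genes were past 2-fold lower than in Apoe-low cells in 4 of 9 measured cases and higher in 0. Ldha, which makes lactate, had 96.8 CPM in migratory dendritic cells and 274 CPM in Apoe-low cells. Immediate early genes were lower in 6 of 18 measured cases and higher in 2, with Fos at 733 CPM in migratory dendritic cells and 1615 CPM in Apoe-low cells. Heat shock genes were lower in 1 of 12, and Hspa1a had 4466 CPM in migratory dendritic cells and 4442 CPM in Apoe-low cells. Mki67, a marker of dividing cells, gave 1 UMI in the 77 cells.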
